A study of Mus musculus with 6 samples.

Results

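The 39 genes described here code for the machinery of DNA replication: origin licensing, the replicative helicase and its activators, polymerases, the sliding clamp and its loader, nucleotide supply, chromatin assembly, fork protection, the E cyclins and uracil repair. They were taken by symbol from a fixed list and not by a cut on a measured value. The list was, however, chosen with earlier results of these data known. All 39 were found among the 55335 genes of each library. The libraries hold unique molecular identifier (UMI) counts from single cells of mouse intestinal organoids, cultures of gut epithelium grown from single cells. All groups were wild-type C57BL/6 of 8 weeks, and the design text names 2 mice, without saying which library came from which. The day-4 libraries, made 96 hours after treatment began, comprise one of RXR antagonist (RXRi, 5 µM), one of all-trans retinoic acid (atRA, 10 µM), one of vitamin A-free medium and one of the vehicle DMSO. A further 2 libraries hold vehicle organoids harvested at day 1, or 24 hours. Whether DMSO was added to the vitamin A-free medium is not given in the sources used here. Until day 3 all cultures had Wnt3a-conditioned medium, a ROCK inhibitor and the GSK3B inhibitor CHIR99021 added to ENR medium (EGF, Noggin, R-spondin). From day 3 they had ENR medium, with the agents given again, so the day of culture and the medium change together. RXR proteins are nuclear receptors that pair with the retinoic acid receptors and other partners, and cells make the ligand of those receptors, retinoic acid, out of vitamin A.

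A cell licenses its origins in G1, when the origin recognition complex with Cdc6 and Cdt1 loads the ring of Mcm2 to Mcm7 onto DNA. At the start of S phase, cyclin E with its kinase, Cdc45 and the GINS complex turn that ring into the active helicase, and polymerases copy the strands on the clamp formed by Pcna. Many of these genes are transcribed by E2F factors once the retinoblastoma protein is inactivated. In the intestine, cells divide in the crypt and stop dividing as they become enterocytes or secretory cells.

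After filtering, 3468 cells remained with the antagonist, 5135 with retinoic acid, 4766 in vitamin A-free medium, 4604 with vehicle at day 4, and 5327 and 5079 in the day-1 libraries, with 47254884 to 62512096 UMIs per library. Any pair of libraries shared 2 to 17 cell barcodes. The epithelial list (Epcam, Cdh1, keratins and Vil1) summed to between 5640 and 35986 CPM (counts scaled to the same library total) in every library. The immune list and the fibroblast and smooth muscle list each stayed under 4 CPM, and the endothelial list under 2 CPM. The libraries differ strongly in other epithelial markers. The regenerative list (Ly6a, Ly6d, Clu, Anxa1 and others) summed to 10600.3 CPM with the antagonist, against 119.7 CPM with vehicle at day 4. The enterocyte list (Alpi, Apoa4, Sis, Fabp1 and others) summed to 86558 CPM with retinoic acid, against 30744 CPM with vehicle at day 4. The enteroendocrine list was higher in day-1 library 2, at 3941 CPM, than in day-1 library 1, at 1102 CPM.

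Promoter sequences, from RefSeq on GRCm38.p6, were held for 32 of the 39 genes, as windows of 250 bases before to 50 bases after each start. They were searched on both strands for 4 core words of E2F-type sites, the word TTCCCGC, the word TTGGCGC, the word TTCGCGC and the word TTGCCGC, with overlapping matches counted separately. A word was found for 22 of the 32 genes (68.8%), against 10.9% of all 27025 genes of the table and 20.7% of the 7288 genes that reached 10 CPM in a library. Of the other replication genes listed below, 17 of 35 had one (48.6%), and of the mitosis genes 4 of 23 (17.4%). The pentamer CCAAT, also sought on both strands, lay in 62.5% of the replication promoters and in 82.6% of the mitosis promoters, against 41.1% of all genes of the table. A match is only a match of letters. The windows below are those of Mcm6 and Mcm3, helicase subunits with 5 and 3 words, and of Pcna and Tk1, which hold 0 words. The levels of Pcna and Tk1 set them apart from most of the list in the results below. In all, 10 of the 32 genes hold 0 words, among them also Mcm2, Mcm10, Slbp and Ung. As plain ratios of CPM to the day-4 vehicle, these 10 ranged with the antagonist between 1.46-fold lower for Slbp and 6.43-fold lower for Mcm10. Whether a word goes with the level of a gene was not tested. Capitals mark the words. The windows are chr1:128359656-128359955, minus strand, for Mcm6, chr1:20820263-20820562, minus strand, for Mcm3, chr2:132253131-132253430, minus strand, for Pcna, and chr11:117825965-117826264, minus strand, for Tk1.
Mcm6: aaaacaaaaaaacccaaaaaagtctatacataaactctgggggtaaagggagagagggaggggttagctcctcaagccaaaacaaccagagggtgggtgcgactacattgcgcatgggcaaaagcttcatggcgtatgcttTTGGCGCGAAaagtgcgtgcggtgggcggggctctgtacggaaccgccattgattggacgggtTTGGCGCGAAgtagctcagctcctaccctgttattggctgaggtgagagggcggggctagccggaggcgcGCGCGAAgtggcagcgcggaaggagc
Mcm3: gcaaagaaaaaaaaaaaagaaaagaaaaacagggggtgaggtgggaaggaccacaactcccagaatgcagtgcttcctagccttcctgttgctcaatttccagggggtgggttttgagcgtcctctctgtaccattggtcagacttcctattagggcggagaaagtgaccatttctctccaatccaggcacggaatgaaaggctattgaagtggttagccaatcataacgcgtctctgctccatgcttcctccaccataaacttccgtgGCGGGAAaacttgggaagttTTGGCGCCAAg
Pcna: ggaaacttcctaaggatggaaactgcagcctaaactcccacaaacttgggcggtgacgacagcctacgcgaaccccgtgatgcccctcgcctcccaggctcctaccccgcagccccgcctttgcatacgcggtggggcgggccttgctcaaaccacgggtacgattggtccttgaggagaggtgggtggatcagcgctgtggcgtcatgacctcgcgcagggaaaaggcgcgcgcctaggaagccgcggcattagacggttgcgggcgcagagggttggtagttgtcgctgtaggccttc
Tk1: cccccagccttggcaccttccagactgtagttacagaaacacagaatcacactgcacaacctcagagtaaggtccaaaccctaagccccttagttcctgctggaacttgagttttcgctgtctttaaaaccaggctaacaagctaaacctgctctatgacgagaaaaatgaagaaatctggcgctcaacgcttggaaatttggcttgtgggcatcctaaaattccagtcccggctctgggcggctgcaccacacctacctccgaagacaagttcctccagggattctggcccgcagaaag

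Summed over all cells, the 39 genes held 536 CPM (exact Poisson 95% interval 530 to 543) with the antagonist, 652 CPM (646 to 659) with retinoic acid, 1769.9 CPM (1758 to 1782) in vitamin A-free medium and 1317 CPM (1307 to 1327) with vehicle at day 4. The day-1 vehicle libraries held 4066 CPM (4051 to 4082) and 3138 CPM (3123 to 3152). Intervals here and below cover counting error only. Every one of the 39 genes was highest in day-1 library 1, and vitamin A-free medium gave the highest value of the 4 day-4 libraries for each of them. The lowest library was the antagonist for 32 genes and retinoic acid for 7, namely Orc1, Orc6, Gins2, Rfc4, Rrm2, Tk1 and Slbp. With 1 library per treatment at day 4, the differences there have no replicate check and no test was made. In sums over a library, fewer replicating cells and less RNA per replicating cell cannot be told apart, so values per cell follow further on.

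**Figure D1:**
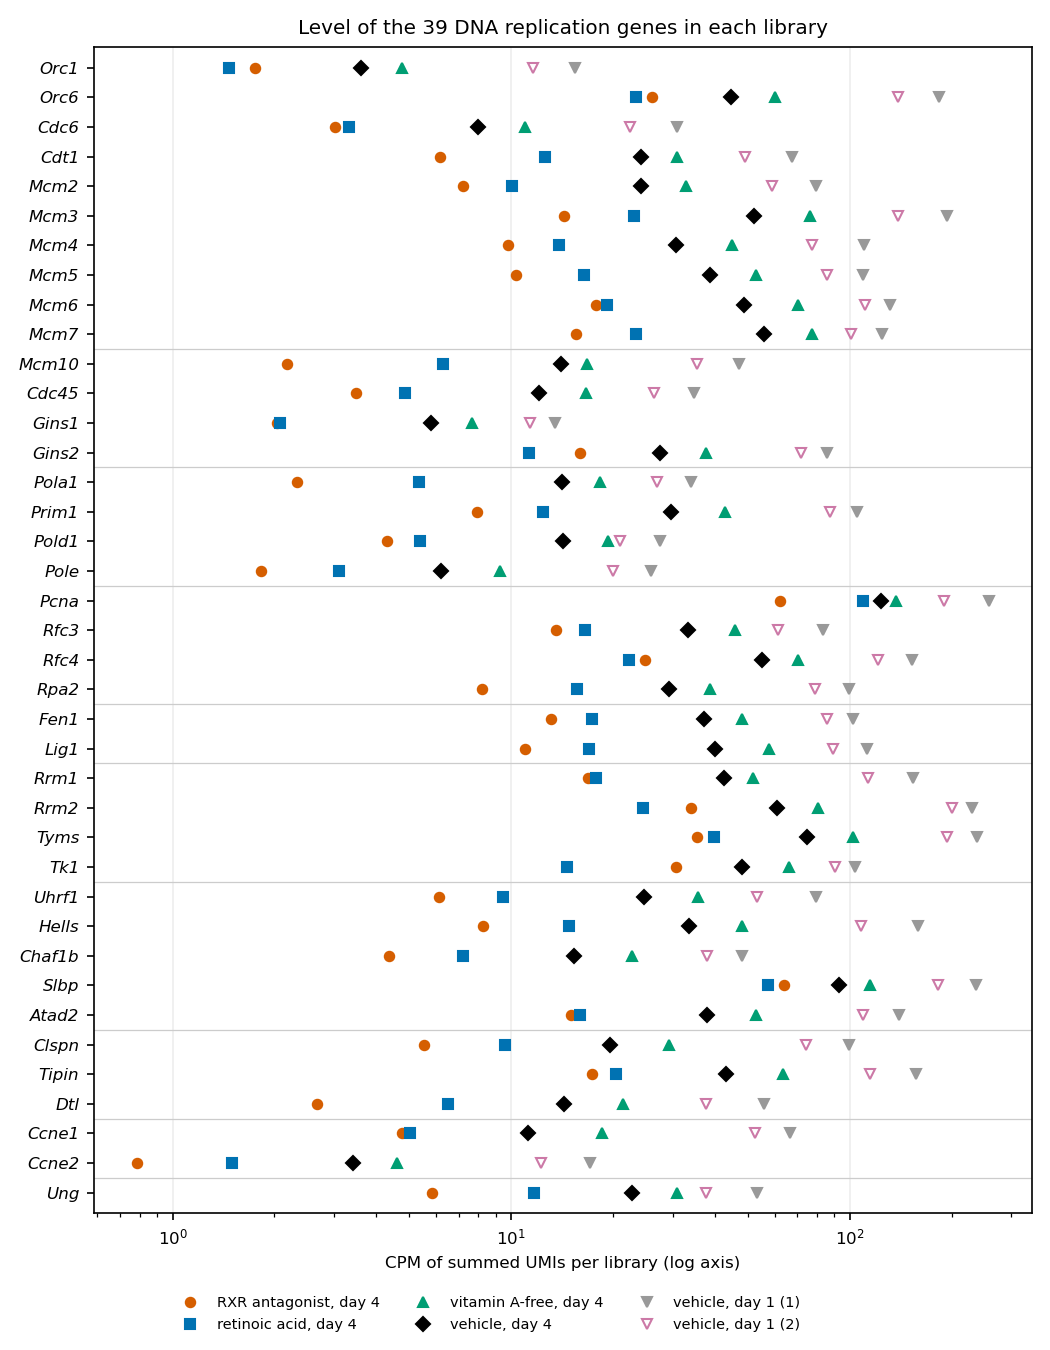
Level of each of the 39 DNA replication genes in each library, in CPM of summed UMIs on a log axis; rows are grouped by role and each symbol is 1 library. The 2 day-1 libraries lie to the right for every gene, and the antagonist and retinoic acid lie to the left, with retinoic acid close to the day-4 vehicle only for Pcna.

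Among the licensing genes, Mcm3, a subunit of the helicase ring, had 14.3 CPM with the antagonist, 23.1 with retinoic acid, 76.1 in vitamin A-free medium and 52 with vehicle at day 4, and 193 and 138 in the day-1 vehicle libraries. Mcm7, of the same ring, had 15.6 CPM with the antagonist, 23.4 with retinoic acid, 77.6 in vitamin A-free medium and 55.8 with vehicle at day 4, and 124 and 101 in the day-1 vehicle libraries. Mcm2 had 7.2 CPM with the antagonist, 10.1 with retinoic acid, 32.9 in vitamin A-free medium and 24.1 with vehicle at day 4, and 79.4 and 59.1 in the day-1 vehicle libraries. The 3 subunits thus kept the same order of libraries, with day 1 highest and the antagonist lowest. Mcm4 had 9.8 CPM with the antagonist, 13.9 with retinoic acid, 44.8 in vitamin A-free medium and 30.8 with vehicle at day 4, and 110.1 and 77.4 in the day-1 vehicle libraries. Mcm5 had 10.3 CPM with the antagonist, 16.4 with retinoic acid, 52.8 in vitamin A-free medium and 38.6 with vehicle at day 4, and 109 and 85.8 in the day-1 vehicle libraries. Mcm6 had 17.9 CPM with the antagonist, 19.2 with retinoic acid, 70.4 in vitamin A-free medium and 48.8 with vehicle at day 4, and 131 and 111 in the day-1 vehicle libraries. For Mcm6 the antagonist and retinoic acid libraries were close to each other, with Poisson intervals of 16.7 to 19.1 and 18.1 to 20.3 CPM. Cdc6, an ATPase that helps load the ring, had 3.03 CPM with the antagonist, 3.32 with retinoic acid, 11 in vitamin A-free medium and 7.96 with vehicle at day 4, and 30.8 and 22.5 in the day-1 vehicle libraries. Cdt1, its loading partner, had 6.18 CPM with the antagonist, 12.6 with retinoic acid, 30.8 in vitamin A-free medium and 24.1 with vehicle at day 4, and 67.5 and 49.1 in the day-1 vehicle libraries. Cdt1 differed between the antagonist and retinoic acid, whereas the Cdc6 intervals of these 2 libraries overlap (2.55 to 3.56 and 2.88 to 3.81 CPM).

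Pcna, the sliding clamp, had 62 CPM with the antagonist, 109 with retinoic acid, 137 in vitamin A-free medium and 124 with vehicle at day 4, and 258 and 189.7 in the day-1 vehicle libraries. It is the gene for which the retinoic acid library lay closest to the day-4 vehicle. In nucleotide supply, Rrm1 and Rrm2 code for the subunits of ribonucleotide reductase. Rrm1 had 16.8 CPM with the antagonist, 17.9 with retinoic acid, 51.9 in vitamin A-free medium and 42.4 with vehicle at day 4, and 154 and 113 in the day-1 vehicle libraries. Rrm2 had 34 CPM with the antagonist, 24.5 with retinoic acid, 80.4 in vitamin A-free medium and 61 with vehicle at day 4, and 230.1 and 201 in the day-1 vehicle libraries. Rrm2 was lower with retinoic acid than with the antagonist, and Rrm1 was nearly level between them. Tyms, thymidylate synthase, had 35.4 CPM with the antagonist, 39.8 with retinoic acid, 102 in vitamin A-free medium and 74.6 with vehicle at day 4, and 237 and 193 in the day-1 vehicle libraries. Tk1, cytosolic thymidine kinase, had 30.6 CPM with the antagonist, 14.6 with retinoic acid, 66.1 in vitamin A-free medium and 48 with vehicle at day 4, and 103 and 90.7 in the day-1 vehicle libraries. Tk1 was lowest with retinoic acid.

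Uhrf1, which brings maintenance methylation to new DNA, had 6.12 CPM with the antagonist, 9.45 with retinoic acid, 35.6 in vitamin A-free medium and 24.7 with vehicle at day 4, and 79.7 and 53.2 in the day-1 vehicle libraries. Slbp, which binds the stem-loop of histone mRNAs, had 64 CPM with the antagonist, 57.4 with retinoic acid, 114 in vitamin A-free medium and 93.2 with vehicle at day 4, and 236 and 182 in the day-1 vehicle libraries. As a ratio of the highest to the lowest day-4 library, Slbp varied less than Uhrf1. Ccne1, cyclin E1, had 4.76 CPM with the antagonist, 5.04 with retinoic acid, 18.5 in vitamin A-free medium and 11.2 with vehicle at day 4, and 66.7 and 52.3 in the day-1 vehicle libraries. Ccne2, cyclin E2, had 0.783 CPM with the antagonist, 1.5 with retinoic acid, 4.61 in vitamin A-free medium and 3.42 with vehicle at day 4, and 17.1 and 12.3 in the day-1 vehicle libraries. Both E cyclins were far higher in the day-1 libraries than in any day-4 library. Ung, a uracil-DNA glycosylase, had 5.84 CPM with the antagonist, 11.7 with retinoic acid, 30.8 in vitamin A-free medium and 22.7 with vehicle at day 4, and 53.2 and 37.7 in the day-1 vehicle libraries. Its order of libraries was that of the helicase subunits.

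The members not given by library here or below are Orc6 (origin recognition), Mcm10, Cdc45 and Gins2 (helicase activation), Pola1, Prim1 and Pole (polymerases and primase), Rfc3 and Rfc4 (clamp loader), Rpa2 (single-strand binding), Fen1 and Lig1 (flap removal and ligation of lagging-strand fragments), Chaf1b (histone deposition), Atad2 (a chromatin ATPase) and Dtl (which targets Cdt1 for degradation). As plain ratios of CPM to the day-4 vehicle, they lay between 0.155 for Mcm10 and 0.583 for Orc6 with the antagonist, 0.378 for Pola1 and 0.536 for Rpa2 with retinoic acid and 1.2 for Mcm10 and 1.5 for Dtl in vitamin A-free medium. Day 4 against the mean of day 1 gave 0.27 for Pole and 0.461 for Pola1. Each of them was thus lower than vehicle with the antagonist and with retinoic acid, higher in vitamin A-free medium, and lower at day 4 than at day 1.

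For comparisons between libraries, log2 ratios of CPM + 5 were centred on the median of all genes with at least 10 CPM in 1 of the groups compared, and a gene at least 1.5-fold apart was counted. Under the RXR antagonist all 39 genes lay below 0 against the day-4 vehicle, between -1.58 for Mcm7 and -0.36 for Orc1. Of the 34 genes at the floor of 10 CPM, 33 were at least 1.5-fold lower and 0 higher, against 15.7% of the 8388 genes compared being lower and 14.2% higher. At equal library totals 32 were lower, against 15.4% of genes lower and 14.6% higher. The median of the 34 was -1.23, beside 0 for all genes by construction. A gene that reached the floor only through the vehicle library had to be lower, so the count describes the genes at the floor and not the 5 below it (Orc1, Cdc6, Gins1, Pole and Ccne2). Reaching it only through vehicle were Cdt1, Mcm2, Mcm4, Mcm10, Cdc45, Pola1, Prim1, Pold1, Rpa2, Uhrf1, Hells, Chaf1b, Clspn, Dtl, Ccne1 and Ung.

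After Mcm7, the lowest centred ratios with the antagonist were those of Mcm3, at -1.57, and Hells, a chromatin remodeller, at -1.55. As a plain ratio of CPM, Mcm7 was lower by 3.59-fold (95% interval 3.31 to 3.9), Mcm3 by 3.63-fold (95% interval 3.34 to 3.96) and Hells by 4.07-fold (95% interval 3.64 to 4.56). Hells had 8.23 CPM with the antagonist, 14.8 with retinoic acid, 48 in vitamin A-free medium and 33.5 with vehicle at day 4, and 159 and 108 in the day-1 vehicle libraries. Besides Orc1, the smallest centred differences were -0.52 for Slbp and -0.55 for Ccne2, the second of which has few UMIs. The pseudocount of 5 CPM shrinks the ratios of such low genes. As plain ratios of CPM, Ccne2 was lower by 4.37-fold (95% interval 3.05 to 6.41) and Orc1 by 2.05-fold (1.57 to 2.69). The largest plain falls were those of Mcm10, by 6.43-fold, Pola1, by 6.06-fold, and Dtl, by 5.36-fold. Slbp was lower by 1.46-fold (95% interval 1.39 to 1.53) and Tk1 by 1.57-fold (95% interval 1.47 to 1.68). By role, 8 of 8 measured licensing genes, 3 of 3 helicase activators, 3 of 3 primase and polymerase genes, 4 of 4 clamp, loader and single-strand binding genes and 2 of 2 lagging-strand genes were lower. So were 4 of 4 nucleotide genes, 4 of 5 chromatin genes (all but Slbp), 3 of 3 fork genes, Ccne1 and Ung. All measured primase and polymerase genes, Ccne1 and Ung reached the floor only through vehicle, so the floor set their direction. In the other roles it also set the direction of Cdt1, Mcm2, Mcm4, Mcm10, Cdc45, Rpa2, Uhrf1, Hells, Chaf1b, Clspn and Dtl. The counts by role include all of these genes. The 4 nucleotide genes had a median of -0.88, against -1.28 for all 10 licensing genes, which include Orc1 and Cdc6 under the floor.

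Outside the list, of 34 measured other replication genes, 16 were at least 1.5-fold lower with the antagonist and 0 higher, with a median of -0.53. Nasp, a histone chaperone, stood at 39 against 104 CPM, Dut, which hydrolyses dUTP, at 58 against 137 CPM and Topbp1, a replication checkpoint scaffold, at 15.4 against 39.7 CPM. Of 24 measured G1/S regulators 4 were lower and 2 higher. E2f8, a repressing E2F factor, stood at 5.04 against 18.4 CPM and Cdk4, the kinase of D cyclins, at 124 against 269 CPM, while Ccnd1, cyclin D1, was higher at 65.1 against 32.2 CPM. Of 26 measured mitosis genes 22 were lower, among them Top2a, a topoisomerase, at 45.5 against 139 CPM and Kif11, a spindle motor, at 9.99 against 34.5 CPM. Beside these, 9 of 10 stem cell genes and 11 of 11 enterocyte genes were lower and 9 of 9 regenerative genes were higher. The part of these markers in the replication values was not tested, here or in the comparisons below.

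Under retinoic acid the median of all genes compared lay at -0.27 on log2(CPM + 5) at equal library totals, so centring matters here. Relative to that median 38 of the 39 genes lay below 0 and Pcna lay at 0.10. At equal totals Pcna was instead slightly lower, with 109 against 124 CPM, a ratio of 0.884 (0.854 to 0.915). Of 34 genes at the floor 20 were at least 1.5-fold lower and 0 higher, against 8.72% of 7981 genes lower and 11.1% higher. At equal totals 33 of 34 were lower and 0 higher, against 20.9% of genes lower and 5.99% higher. Mcm10, Cdc45, Pola1, Pold1, Uhrf1, Chaf1b, Clspn, Dtl and Ccne1 reached the floor only through vehicle, so they had to be lower in CPM. The counts here, also by role, include them. The median of the 34 was -0.64 after centring, beside 0 for all genes. The lowest were Tk1 at -1.16, Rrm2 at -0.89 and Mcm6 at -0.88, lower in CPM by 3.28-fold (95% interval 3.03 to 3.55), 2.49-fold (95% interval 2.34 to 2.65) and 2.55-fold (95% interval 2.37 to 2.73). After Pcna, the highest were Ccne2 at -0.10 and Orc1, a subunit of the origin recognition complex, at -0.14, both under the floor. The pseudocount shrinks both, whose plain ratios of CPM were 0.439 and 0.408. Orc1 had 1.76 CPM with the antagonist, 1.47 with retinoic acid, 4.76 in vitamin A-free medium and 3.6 with vehicle at day 4, and 15.4 and 11.6 in the day-1 vehicle libraries. By role, 6 of 8 licensing genes, 1 of 3 helicase activators, 3 of 3 primase and polymerase genes, 1 of 4 clamp, loader and single-strand binding genes, 2 of 2 lagging-strand genes, 3 of 4 nucleotide genes, 3 of 5 chromatin genes and 1 of 3 fork genes were lower, and neither Ccne1 nor Ung was. At equal totals all measured genes of each role were lower except Pcna.

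Of the other lists, 10 of 34 other replication genes were lower with retinoic acid (20 at equal totals), among them Rpa3, a subunit of the single-strand binding complex, at 23.7 against 61.1 CPM and Pold2, a polymerase delta subunit, at 20.9 against 49.5 CPM. Of 24 G1/S regulators 7 were lower and 1 higher (16 and 0 at equal totals). Myc, a growth-promoting transcription factor, stood at 8.67 against 28.5 CPM, and Cdkn1b, which codes for the inhibitor p27, at 31.5 against 67.1 CPM. Of 26 mitosis genes 25 were lower under either scaling, such as Ube2c, a ubiquitin-conjugating enzyme, at 101 against 309 CPM and Cdk1, the mitotic kinase, at 32.5 against 94.8 CPM. In the same library 10 of 11 enterocyte genes were higher (8 at equal totals) and 9 of 10 stem cell genes were lower (10 at equal totals).

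In vitamin A-free medium all 39 genes lay above 0 against the day-4 vehicle, between 0.06 for Pcna and 0.46 for Ccne1. None of the 35 at the floor reached 1.5-fold, against 0.831% of 8180 genes higher and 1.94% lower. The count was also 0 at equal totals, against 1.34% of genes higher and 1.36% lower. As plain ratios of CPM, the 39 genes lay between 1.1 for Pcna and 1.66 for Ccne1, and all 39 counting intervals lay above 1. The share of all genes with such an interval was not computed. These ratios are at equal totals, where the median log2 ratio of all genes compared, with the pseudocount, lay at 0.08. An interval above 1 therefore does not by itself place a gene above the median gene. Ccne1 had a ratio of 1.66 (1.49 to 1.85), Tipin, a fork protection protein, of 1.47 (1.39 to 1.56) and Mcm3 of 1.46 (1.39 to 1.54). The smallest centred differences after Pcna were those of Orc1, at 0.10, and Ccne2, at 0.11. The pseudocount shrinks both, whose plain ratios of CPM were 1.32 and 1.35. Tipin had 17.3 CPM with the antagonist, 20.4 with retinoic acid, 63.5 in vitamin A-free medium and 43.1 with vehicle at day 4, and 157 and 115 in the day-1 vehicle libraries. Without a second library of either condition, differences of this size cannot be set against the spread between cultures. The 2 day-1 libraries, labelled alike, differed over the summed list by 4066 against 3138 CPM.

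None of 37 other replication genes and none of 27 mitosis genes reached 1.5-fold either, with medians of 0.24 and 0.30. Dut stood at 200.1 against 137 CPM and Cdk1 at 133 against 94.8 CPM. Of 25 G1/S regulators 2 were lower and 1 higher. Cdkn2b, which codes for the inhibitor p15, stood at 75.6 against 159 CPM, Cdkn1a, which codes for p21, at 259 against 379 CPM and Cdk6, a kinase of D cyclins, at 63.8 against 37.7 CPM. Cdkn1a was not counted as lower at equal totals, where 1 was lower and 1 higher. Beside them, 7 of 10 stem cell genes were higher (9 at equal totals) and 6 of 11 enterocyte genes were lower (4 at equal totals).

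**Figure D2:**
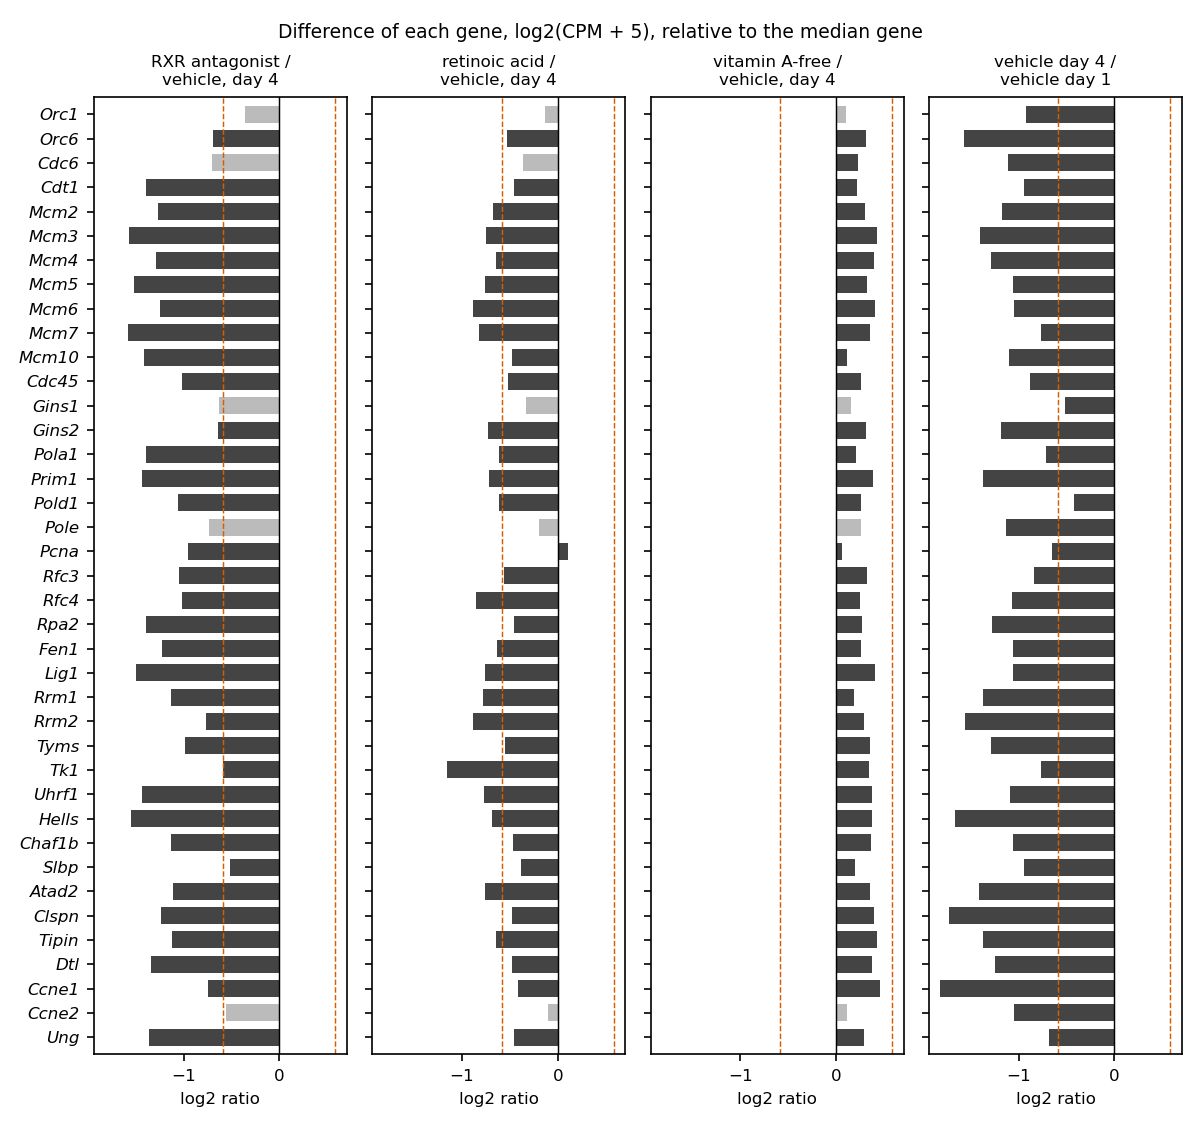
Log2 ratio of CPM + 5 of each of the 39 genes in each comparison, relative to the median gene; grey bars are genes under 10 CPM in both groups and dashed lines mark 1.5-fold. All bars point to lower values with the antagonist, all but Pcna (which is lower at equal totals) with retinoic acid and all in the day comparison, and all point to higher values in vitamin A-free medium without reaching the line.

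In the vehicle organoids the 39 genes were lower in the day-4 library than in both day-1 libraries. Day 4 has 1 library and no spread of its own, so the test below assumes that it varies like the 2 day-1 libraries, with 1 residual degree of freedom. The labels do not say whether those 2 came from separate cultures, so the p-values measure only the spread between them, which may be technical, and an effect of the day cannot be told apart from the single day-4 library. In edgeR's quasi-likelihood test with Benjamini-Hochberg adjustment over 17584 genes, 36 of the 39 fell at an adjusted p below 0.05 and 0 rose, against 16.3% of genes falling and 16.8% rising. Standard errors (SE) were derived from the F statistic. The largest fall was in Ccne1, with a log2 fold change of -2.23 (SE 0.22, adjusted p = 0.00364) by edgeR, at 11.2 CPM at day 4 against 66.7 and 52.3 CPM at day 1. Clspn, claspin of the fork, followed at -1.97 (SE 0.23, adjusted p = 0.00496) by edgeR, Ccne2 at -1.92 (SE 0.27, adjusted p = 0.00719) and Hells at -1.82 (SE 0.28, adjusted p = 0.00858). Clspn had 5.52 CPM with the antagonist, 9.59 with retinoic acid, 29.2 in vitamin A-free medium and 19.6 with vehicle at day 4, and 99.5 and 74.5 in the day-1 vehicle libraries. The 3 genes that did not pass in edgeR were Pold1, the catalytic subunit of polymerase delta, at -0.59 (SE 0.21, adjusted p = 0.0878), Pcna at -0.68 (SE 0.23, adjusted p = 0.0722) and Ung at -0.82 (SE 0.24, adjusted p = 0.0504). The day-4 level of each of these 3 was nevertheless below both day-1 libraries. Pold1 had 4.3 CPM with the antagonist, 5.37 with retinoic acid, 19.3 in vitamin A-free medium and 14.2 with vehicle at day 4, and 27.5 and 20.9 in the day-1 vehicle libraries. By size of fold 37 of 39 were at least 1.5-fold lower, against 18.4% of 8525 genes lower and 20.1% higher, and 39 at equal totals, against 26.7% lower and 14.8% higher. Orc1, Cdc6, Gins1, Pole and Ccne2 reached the floor only through day 1 and so had to be lower. The 2 genes under that size after centring were Pold1 and Gins1, a GINS subunit, at -0.43 and -0.51. Gins1 had 2.03 CPM with the antagonist, 2.08 with retinoic acid, 7.66 in vitamin A-free medium and 5.78 with vehicle at day 4, and 13.5 and 11.4 in the day-1 vehicle libraries.

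In the same edgeR fit, with the same single day-4 library, 34 of 46 other replication genes fell and 0 rose, and 27 of 27 mitosis genes fell. Dut stood at 137 against 444 CPM (edgeR adjusted p = 0.0102), Orc2, of the origin recognition complex, at 15.1 against 55.5 CPM (adjusted p = 0.00391) and Birc5, survivin, at 143 against 527 CPM (adjusted p = 0.0039). Of 27 G1/S regulators 10 fell and 4 rose. Cdkn2b rose, at 159 against 17.6 CPM (edgeR adjusted p = 0.00474), while Ccnd1 fell, at 32.2 against 119 CPM (adjusted p = 0.00433), and Cdk6 fell, at 37.7 against 143 CPM (adjusted p = 0.00328). The day-1 CPM in these pairs is the mean of both libraries. Day and medium cannot be told apart, and the enterocyte list summed to 30744 CPM at day 4 against 4969 and 8343 CPM at day 1.

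For values per cell, every cell was thinned to 5000 UMIs and scored. The score is the mean log expression of the 39 genes minus that of all other genes in the same expression bins, and a cell above 0 is called positive. Of 26213 cells, 9752 were positive, and 2166 shallower cells were left out (228 with the antagonist, 288 with retinoic acid, 182 in vitamin A-free medium, 352 with vehicle at day 4, and 512 and 604 at day 1). With the antagonist 131 of 3240 cells were positive, or 4.04% (exact binomial 95% interval 3.39 to 4.78). With retinoic acid 441 of 4847 were positive, or 9.10% (8.30 to 9.94). Both shares lay below that of the day-4 vehicle. In vitamin A-free medium it was 1244 of 4584, or 27.1% (25.9 to 28.5), and with vehicle at day 4 it was 832 of 4252, or 19.6% (18.4 to 20.8). At day 1 it was 4049 of 4815 and 3055 of 4475, or 84.1% (83.0 to 85.1) and 68.3% (66.9 to 69.6). The intervals of the 6 libraries do not overlap, and the 2 day-1 libraries differ by more than either counting interval. Against the day-4 vehicle the share was 0.207 times as large with the antagonist, 0.465 times with retinoic acid and 1.39 times in vitamin A-free medium, and day 4 stood at 0.257 times day 1. Before thinning the shares were 4.04%, 9.46%, 27.9%, 20.2%, 83.2% and 66.2% in the same order of libraries.

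A positive score is a range of a continuous value and not a cell type. In the antagonist library 37 cells lay within 0.1 SD of the score around 0, with retinoic acid 48, in vitamin A-free medium 152, with vehicle at day 4 110, and at day 1 245 and 290. Positive cells held on average 19.7 UMIs of the 39 genes per 5000 with the antagonist, 24.3 with retinoic acid, 24.5 in vitamin A-free medium and 24.6 with vehicle at day 4, and 22.5 and 20.8 at day 1. Other cells held 1.72, 1.17, 2.27 and 1.85 in the same order of day-4 libraries and 4.95 and 3.82 at day 1. The score is made of these same genes, so the amounts in positive and in other cells are bounded by the cut and are given as a description. The share of all UMIs of the 39 genes that lay in positive cells was 32.6% with the antagonist, 67.5% with retinoic acid, 80.1% in vitamin A-free medium and 76.4% with vehicle at day 4, and 96.0% and 92.1% at day 1. With the antagonist, most UMIs of these genes were therefore in cells under the cut. Before thinning, positive cells of the antagonist library were deeper than its other cells, at medians of 18414 and 13584 UMIs, against 11902.5 and 10852 with vehicle at day 4.

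**Figure D3:**
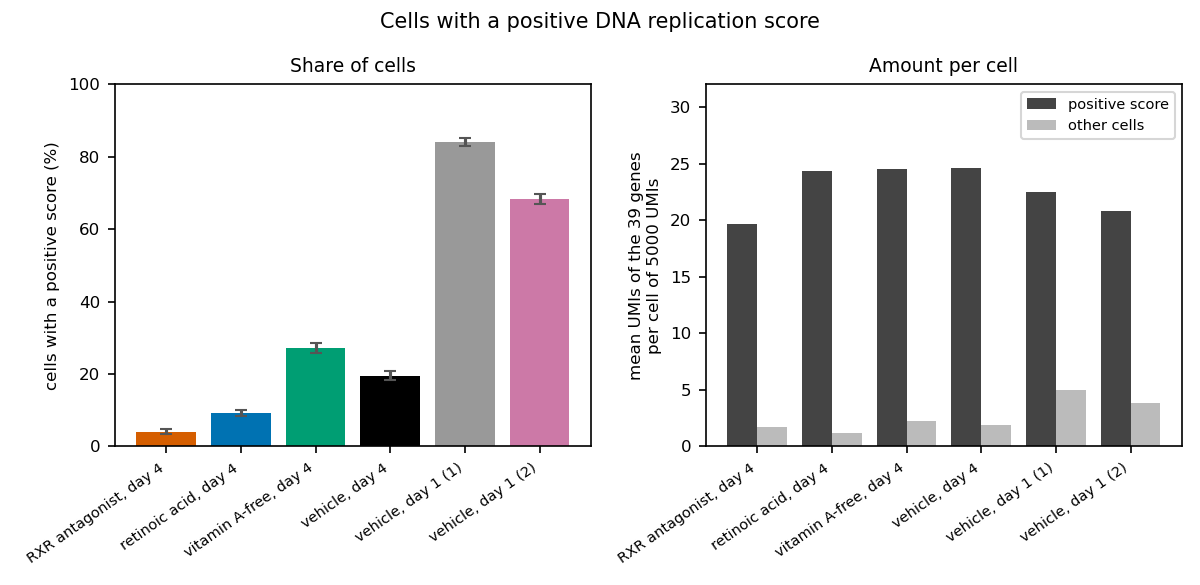
Left, share of thinned cells with a positive replication score in each library, with exact binomial 95% intervals; right, mean UMIs of the 39 genes per cell of 5000 UMIs in positive and other cells. The share runs between 4.04% with the antagonist and 84.1% in day-1 library 1; the amounts per cell are those of cells chosen on the same genes.

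**Figure D4:**
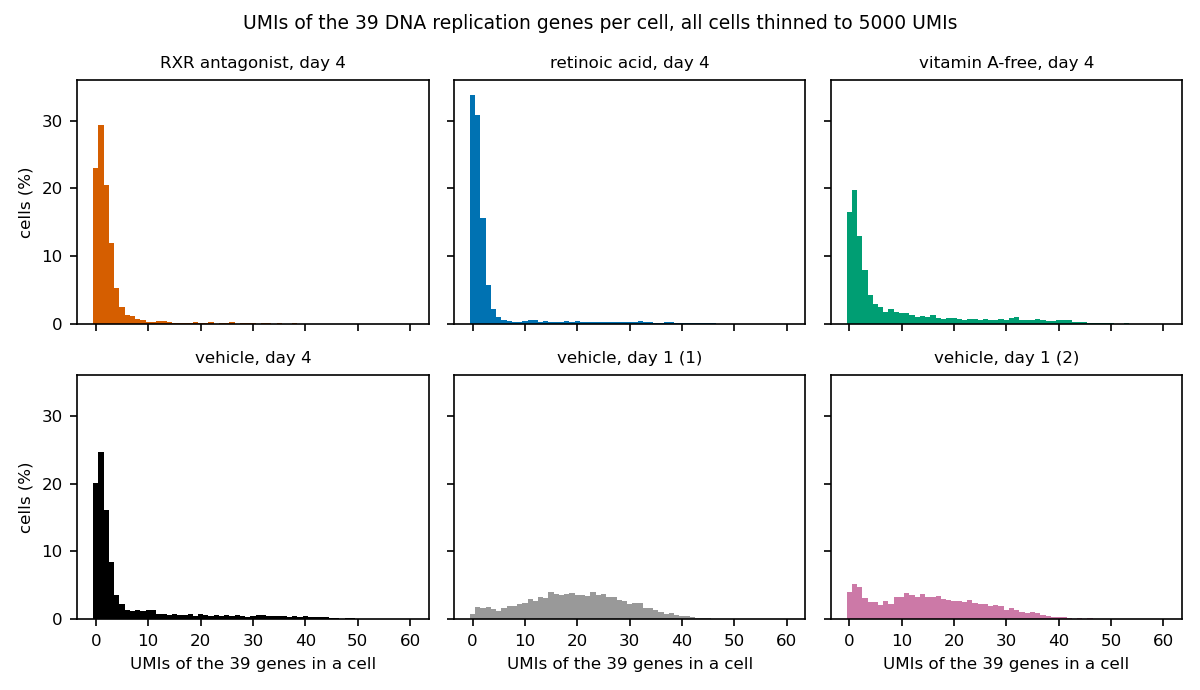
Distribution of the summed UMIs of the 39 genes over cells thinned to 5000 UMIs, 1 panel per library, as percent of cells. Day-4 cells pile up at 0 to 3 UMIs with a long thin tail; day-1 cells spread broadly, with medians of 20 and 14 UMIs, and library 2 also has a pile at low values, its tallest bar being at 1 UMI.

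A cell had 0 UMIs of all 39 genes in 23.0% of cells with the antagonist, 33.7% with retinoic acid, 16.5% in vitamin A-free medium and 20.1% with vehicle at day 4, and in 0.768% and 3.96% at day 1. The median cell held 1 UMI with the antagonist and 1 with retinoic acid, 3 in vitamin A-free medium and 2 with vehicle at day 4, and 20 and 14 at day 1. The richest 1% of cells held at least 25.6 UMIs with the antagonist, against 43 with vehicle at day 4. With retinoic acid the corresponding value was 38.

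Positive cells of the libraries were not alike in other genes. In positive cells of the antagonist library the regenerative list summed to 8359 CPM and the stem cell list to 475 CPM, against 61.1 CPM and 2871 CPM in positive cells of the day-4 vehicle. Positive cells under retinoic acid had 7319 CPM of the enterocyte list and 2196 CPM of the stem cell list, against 2154 CPM and 2871 CPM with vehicle. In vitamin A-free medium these were 1978 and 3426 CPM. In day-1 positive cells the regenerative list summed to 2273 and 2791 CPM and the stem cell list to 805 and 663 CPM. Of positive cells, 65.6% with the antagonist, 58.5% with retinoic acid, 50.7% in vitamin A-free medium and 56.7% with vehicle at day 4 were also positive for a mitosis score built the same way, and 86.5% and 80.6% at day 1.

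Cells with few enterocyte UMIs were then looked at alone, a choice made after seeing the data. Of cells with fewer than 50 UMIs of the enterocyte list per 5000, 4.83% (131 of 2712) were positive with the antagonist, 76.6% (356 of 465) with retinoic acid, 51.4% (1228 of 2388) in vitamin A-free medium and 53.7% (820 of 1526) with vehicle at day 4. At day 1 it was 3613 of 4016 and 2573 of 3308 cells. Such cells made up 83.7% of cells with the antagonist, 9.59% with retinoic acid, 52.1% in vitamin A-free medium and 35.9% with vehicle at day 4. Relative to the day-4 vehicle, the share among these cells was 1.42 times as large with retinoic acid and 0.957 times in vitamin A-free medium, where over all cells the ratios were 0.465 and 1.39. For vitamin A-free medium the 2 shares do not differ beyond counting error (49.4 to 53.4% against 51.2 to 56.3% with vehicle), and with the limit at 100 UMIs the ratio was 1.03. With the antagonist it was 0.0899 times, lower than over all cells. Among cells with 50 or more, 0 of 528 were positive with the antagonist (which allows a share of up to 0.568%), 1.94% with retinoic acid, 0.729% in vitamin A-free medium and 0.440% with vehicle at day 4, against 54.6% and 41.3% at day 1. Without cells rich in enteroendocrine UMIs, day-1 library 2 had 69.5% positive cells and library 1 84.1%.

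Single genes were compared within positive cells, scored each time without the gene in question. With the antagonist the median ratio to the day-4 vehicle over the 39 genes was 0.729, with 24 counting intervals below 1 and 1 above. Here and below, these intervals were made for the 39 genes only, so no share over all genes stands beside the counts. The other genes of the list chose the cells, so the ratios are not free of the cut and are a description. With the antagonist 37 cells lay within 0.1 SD of the cut beside 131 positive cells, against 110 beside 832 with vehicle at day 4. The part of this in the ratios was not tested. Mcm10, a helicase activation factor, had the lowest ratio, 0.22 (0.0871 to 0.461), followed by Hells at 0.51 (0.373 to 0.683), Uhrf1 at 0.517 (0.356 to 0.731) and Mcm5 at 0.529 (0.397 to 0.692). The interval above 1 was that of Tk1, at 1.3 (1.07 to 1.57). Tk1 held 214 CPM in positive cells with the antagonist, 131 with retinoic acid, 169.6 in vitamin A-free medium and 165 with vehicle at day 4, and 114 and 114 at day 1. Mcm10 held 10.4, 43.8, 37.5 and 47.2 CPM in positive cells of the day-4 libraries in the same order, and 50.6 and 46.8 at day 1. The low Mcm10 value with the antagonist rests on 7 UMIs.

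With retinoic acid the median ratio within positive cells was 0.994, with 3 intervals below 1 and 3 above, among them Tk1 at 0.798 (0.693 to 0.918) and Ung at 1.27 (1.08 to 1.5). In vitamin A-free medium it was 1.02, with 2 below and 1 above. Between day 4 and day 1 of the vehicle organoids 6 intervals lay below 1 and 24 above. Ccne1 was at 0.626 (0.539 to 0.723) and Ccne2 at 0.691 (0.517 to 0.908), whereas Pola1, the catalytic subunit of polymerase alpha, was at 1.69 (1.47 to 1.94) and Mcm7 at 1.53 (1.42 to 1.64). Cells are not replicates, and these intervals hold only for these libraries.

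Pcna and Slbp were the members least tied to the score at day 4. Each of the 39 genes had a higher CPM in positive than in other cells in every library, with a median ratio of 17.2 with the antagonist, 55.8 with retinoic acid, 12.9 in vitamin A-free medium and 18.5 with vehicle at day 4, and 3.44 and 4.59 at day 1. The score was made of the other 38 genes, so this is a description. For Pcna the ratio was 3.76 with the antagonist, 3.0 with retinoic acid, 5.34 in vitamin A-free medium and 4.11 with vehicle. For Slbp it was 2.96, 6.89, 4.09 and 4.07 in the same order. Ccne1 and Cdc6 were at the other end, at 66.9 and 66.4 with vehicle at day 4. Both of these ratios rest on few UMIs in other cells. Among those, cells positive for the mitosis score held 3 Ccne1 and 4 Cdc6 UMIs, and the rest had 0.573 and 0.382 CPM.

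In other cells, 37 of the 39 intervals under retinoic acid lay below 1 against the day-4 vehicle. Pcna alone lay above, at 1.24 (1.16 to 1.33), and Cdc6, with few UMIs, spanned 1. No share over all genes was computed for such intervals. They are at equal totals, where the median of all genes lay at -0.27 on log2(CPM + 5) over all cells. Pcna held 93.4 CPM in other cells with retinoic acid, against 75.2 CPM with vehicle. In the 10% of cells richest in enterocyte UMIs, 36.9% of 493 cells with retinoic acid had a Pcna UMI, against 25.1% of 427 cells with vehicle. Mcm3 was found in 0% and 0.468% of the same cells, Tyms in 5.07% and 2.34% and Slbp in 15.0% and 22.0%. For Mcm3 with retinoic acid this is 0 of 493 cells. That allows a share of cells with a UMI of up to about 0.609%, taken as 3 divided by the number of cells. The share of cells with a Pcna UMI over all cells was 39.6% with retinoic acid and 38.3% with vehicle. No share from cells known to lack Pcna was at hand, so the part of free RNA in these shares was not tested.

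**Figure D5:**
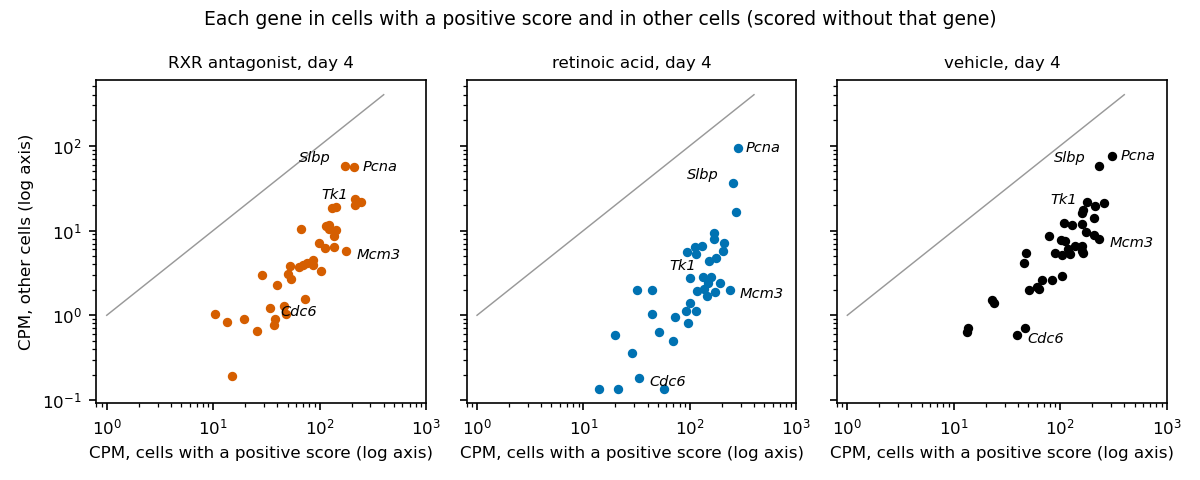
CPM of each of the 39 genes in cells with a positive score (horizontal, log axis) and in other cells (vertical, log axis), scored without the gene itself, for the antagonist, retinoic acid and vehicle libraries of day 4; the line marks equal levels. Every gene lies under the line, and Pcna and Slbp lie closest to it, with Pcna at 93.4 CPM in other cells with retinoic acid.

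The genes also differed in how they were spread over cells with a replication score alone and cells with a mitosis score alone. In the day-1 libraries, Ung was 13.5 and 17.1 times as high in the first kind of cell as in the second, Ccne1 11.1 and 13.9 times and Cdc6 6.02 and 4.76 times. Mcm3 was at 3.48 and 3.93. Tk1 was at 1.05 and 0.871 and Tyms at 0.953 and 0.915, near equal in both kinds of cell. With vehicle at day 4 the values were 41.7 for Ung, 5.53 for Mcm3 and 0.981 for Tk1, where the Ung value rests on 5 UMIs in mitosis-only cells. With the antagonist Tk1 was at 0.974, over 45 and 172 cells. The scores were made without the gene itself.

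For 9 of the 39 genes another gene with over 100 UMIs in these libraries overlaps on the opposite strand, namely Orc6, Mcm7, Cdc45, Gins2, Rfc4, Fen1, Lig1, Tk1 and Ccne2. Whether the counting used strand is not given in the sources used here. Pcna and Tyms pseudogenes are counted separately in the files and held at most 139 UMIs each over the 6 libraries.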

How the data were processed

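The authors deposited raw UMI counts, a whole number for each gene in each cell, without normalization; per the labels' protocols, cells were sorted against debris and dead cells before 3-prime droplet libraries were made. The submitters' processing notes name Cell Ranger 3.1.0, bcl2fastq 2.17 and GRCm38 but not what each was used for. Replicates were the 2 day-1 libraries, listed as separate samples by the labels. Doses are taken as micromolar, although the labels' unit is written "μm". Cells needed 500 genes, 1000 UMIs and at most 20% mitochondrial UMIs, which removed 0 barcodes, since no deposited barcode had under 1001 genes or over 9.996% mitochondrial UMIs. Scrublet (scanpy 1.11.5) by its automatic cut-off marked 0 to 1.35% of barcodes, too few to serve, and barcodes with the highest scores were therefore removed at a rate of 0.8% per 1000 barcodes. UMIs were summed per library and scaled to CPM. The pseudocount for log2 ratios was 5 CPM, which understates the change of low genes, and genes compared had to reach 10 CPM in 1 of the groups. The ratios of CPM are plain ratios with exact conditional intervals (95%). Day 4 against day 1 was tested by quasi-likelihood in edgeR 4.0.16 under R 4.3.3, after filterByExpr and TMM, with Benjamini-Hochberg adjustment at 0.05, with DESeq2 1.42.0 as an alternative. Tested on simulated data for that comparison (5 simulations of 17253 genes, 200 changed), edgeR recovered 41.4% of 2-fold and 100% of 4-fold changes, with 6.2 false calls on average. The changed genes were drawn only from those expected to have more than 200 UMIs, and all simulated libraries shared 1 dispersion, 0.0276. Far fewer genes changed there than were called in the data, and the spread at day 4 is unknown. These rates therefore hold for the simulated setting only. Scores used 25 expression bins. Members given by library are those with the 3 highest and 3 lowest centred ratios of each comparison, with Pcna, Mcm2 to Mcm7, Cdc6, Cdt1, Rrm1, Rrm2, Tyms, Tk1, Uhrf1, Ccne1, Ccne2, Slbp and Ung. Other lists are named by up to 4 genes with the largest centred ratio. Genes named for their values within positive cells were chosen after those values were seen. The members and lists were chosen with earlier results of these data known. Other scalings, floors, pseudocounts, filters, score forms and left-out libraries were tried.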

Additional observations from a re-analysis of the deposited data

How the results depend on the processing

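No paired analysis was possible because no pair of groups has more than 1 replicate number in common. The number of the 39 genes at least 1.5-fold lower was 6 of 7 with the antagonist at a floor of 50 CPM, against 669 of 3773 genes compared. With retinoic acid it was 33 of 34 at equal totals, 35 of 39 with no floor and 5 of 7 at a floor of 50 CPM. Over all genes compared these counts were 1671 of 7981, 1812 of 25871 and 412 of 3458. In vitamin A-free medium 1 gene was at least 1.5-fold higher with a pseudocount of 1 CPM, where 0 were otherwise. Of all 8180 genes compared, 109 were higher with that pseudocount. The floors change which genes are counted; for the other settings the cause was not tested. In edgeR, 1878 of all genes fell with no filter on low counts, against 2862 of 17584 with it. The number of the 39 genes that fell in edgeR ranged between 31 with no filter and 38 with DESeq2 size factors, and DESeq2 itself called 38. For the share of positive cells, a mean z-score gave a ratio of 0.275 for day 4 against day 1. Without either day-1 library that ratio ranged between 0.233 and 0.287, and 34 and 38 of the 39 genes were at least 1.5-fold lower. Over all genes compared these counts were 1410 of 8509 and 1706 of 8542. In cells with fewer than 50, 25 and 100 enterocyte UMIs, choices made after seeing the data, the ratio of shares was 0.0899, 0.0893 and 0.101 with the antagonist, 1.42, 1.31 and 1.71 with retinoic acid, and 0.957, 0.922 and 1.03 without vitamin A. Between day 4 and day 1 it was 0.641, 0.707 and 0.529. The cause was not tested. Leaving out a day-1 library leaves edgeR with no residual degrees of freedom, so no test was made there. For the DESeq2 size factors, which moved the median of all genes to 0.13 with retinoic acid, 71.0% of genes past 1.5-fold were higher, against 56.1% after centring on the median and 22.2% at equal totals. This share was 49.8% at equal totals for the vitamin A-free comparison, against 29.96% after centring, and 35.7% against 52.2% for the day comparison. Depth limits Orc1, Ccne2, Gins1, Pole and Cdc6, which lie under 10 CPM in several libraries.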

Other observations

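Cells positive for a mitosis score, made of 27 mitosis genes in the same way as the replication score, were set beside the replication-positive cells. With the antagonist 255 cells were positive for mitosis and 131 for replication. With retinoic acid there were 356 and 441, in vitamin A-free medium 1001 and 1244, and with vehicle at day 4 744 and 832. At day 1 there were 3829 and 4049 in library 1 and 2879 and 3055 in library 2. Of the 6 libraries, only the antagonist library thus had more mitosis-positive than replication-positive cells. Cells positive for mitosis alone were 5.22% with the antagonist and cells positive for replication alone 1.39%. With vehicle at day 4 these were 6.40% and 8.47%. No test was made, with 1 library each.

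The shares of positive cells in the 2 day-1 libraries were 84.1% and 68.3%. In other cells of library 2 the enteroendocrine list (Chga, Chgb, Neurod1 and others) summed to 13288 CPM, against 1517 CPM in library 1. In cells with 10 or more UMIs of that list, 1 of 81 was positive in library 2 and 6 of 10 in library 1. Such cells made up only 1.81% of library 2 and 0.208% of library 1. Without them the shares of positive cells were 69.5% in library 2 and 84.1% in library 1.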
